A study of Homo sapiens with 12 samples.

Results

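The genes of human chromosome 9 were followed in HEK293 cells with a knockdown of EXT1 and in their wild-type counterpart. A gene was a member when the count table placed it on chromosome 9 and its mean over the 12 libraries was at least 5 CPM (read counts scaled to library size, with TMM factors for library composition). This left 481 of the 2275 chromosome 9 rows, out of 11689 genes at that level and 58735 rows in all. Of the members, 459 were protein-coding, and the other classes had at most 5 members each. The chromosome itself was chosen by the knockdown against wild type values of these same libraries. Its median shift and the number of members called are therefore a description, and no test of them is given.

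RNA was measured in 4 groups of 3 libraries, all from HEK293, a human embryonic kidney line used to make proteins and viral vectors. The groups were EXT1 knockdown cells (EXT1kd) and wild-type cells (WT), each grown adherent or in suspension. EXT1 encodes a glycosyltransferase that builds heparan sulfate chains together with EXT2. Adherent cultures were kept in T75 flasks with DMEM and FBS. Suspension cultures were kept without serum in EX-CELL 293 medium, on a shaker at 120 rpm. The temperature was 37 °C and CO2 was 5% for all cultures. Adherent and suspension cells thus differed in medium, serum and shaking at once. Cells had gone through 5 passages. How EXT1 was knocked down is not stated in the labels, nor is whether EXT1kd is 1 clone or a mixed population, nor whether replicates were separate cultures. P-values therefore measure library-to-library spread, part of which may be technical.

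A chromosome is a physical group of genes rather than a pathway: its genes share a DNA molecule and an amount of template, while each keeps its own promoter. HEK293 cells have an abnormal karyotype that differs between sublines and clones, as background knowledge of the line. Chromosome 9 carries genes of many functions, among them the kinase ABL1, the mTOR regulator TSC1, the receptor NOTCH1, the CDKN2A and CDKN2B cell cycle inhibitors, and a large block of heterochromatin next to its centromere where few genes are expressed. Only RNA was measured in these bulk samples, in which fewer cells of a type and less RNA per cell cannot be told apart.

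Libraries held 13911604 to 21393059 reads assigned to genes. EXT1 stood at 11.8 to 12.5 CPM in EXT1kd adherent libraries and at 51.7 to 53.1 CPM in WT adherent libraries, a 4.34-fold lower level (edgeR quasi-likelihood test, adjusted p = 5.67e-12). In suspension it stood at 13.1 to 15.4 CPM in EXT1kd and at 47.8 to 54.5 CPM in WT, 3.48-fold lower (adjusted p = 4.77e-11). Of 8 markers of HEK293 cells, VIM, CDH2, NEFL, KRT8, KRT18 and LIN28B were abundant in every library, whereas PAX2 (2.28 to 5.55 CPM) and NEFM (1.64 to 6.28 CPM) were low. The leukocyte marker PTPRC and the hepatocyte marker ALB did not exceed 0.35 CPM in any library, but the leukocyte marker CD14 ran from 0.07 to 1.45 CPM. The 5 leukocyte markers summed to at most 1.61 CPM and the 3 hepatocyte markers to at most 0.45 CPM per library. The 3 WT adherent libraries stood apart from one another, with a chi-square per degree of freedom of 10.6 to 23.6 between their counts, against 2.50 to 10.1 between replicates of the other groups. The median standard deviation of a member over replicates, on the log2 scale, was 0.08 in EXT1kd adherent, 0.15 in WT adherent, 0.09 in EXT1kd suspension and 0.07 in WT suspension libraries.

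Upstream sequences of 6 members are shown because these genes departed from the level of their chromosome in the same direction in both cultures, as described below. TMOD1, RGS3 and GOLM1 departed upward, and SHC3, SAPCD2 and RPL12 departed downward. Each run holds the 250 bases before the RefSeq transcription start on GRCh38.p14, written 5′ to 3′ on the strand of the gene. Capitals mark every match, on either strand, to the TATA box letters TATAAA, the GC box letters GGGCGG or the CCAAT box letters CCAAT.
TMOD1 (chr9:97500930-97501179, plus strand): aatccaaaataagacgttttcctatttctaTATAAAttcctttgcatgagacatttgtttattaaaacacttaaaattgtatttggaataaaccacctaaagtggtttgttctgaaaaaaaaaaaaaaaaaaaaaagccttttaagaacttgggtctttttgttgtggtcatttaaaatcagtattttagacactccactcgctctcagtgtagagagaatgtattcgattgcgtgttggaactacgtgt
RGS3 (chr9:113444480-113444729, plus strand): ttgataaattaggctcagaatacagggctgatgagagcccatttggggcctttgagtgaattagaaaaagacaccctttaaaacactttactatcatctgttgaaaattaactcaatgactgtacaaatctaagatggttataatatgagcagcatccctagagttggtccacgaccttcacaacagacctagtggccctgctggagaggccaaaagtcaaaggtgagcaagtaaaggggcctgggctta
GOLM1 (chr9:86100150-86100399, minus strand): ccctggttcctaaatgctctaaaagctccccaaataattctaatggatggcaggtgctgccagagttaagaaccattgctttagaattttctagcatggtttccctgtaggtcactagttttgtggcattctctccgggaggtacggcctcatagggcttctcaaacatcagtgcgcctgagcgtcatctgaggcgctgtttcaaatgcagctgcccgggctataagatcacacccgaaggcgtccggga
SHC3 (chr9:89178819-89179068, minus strand): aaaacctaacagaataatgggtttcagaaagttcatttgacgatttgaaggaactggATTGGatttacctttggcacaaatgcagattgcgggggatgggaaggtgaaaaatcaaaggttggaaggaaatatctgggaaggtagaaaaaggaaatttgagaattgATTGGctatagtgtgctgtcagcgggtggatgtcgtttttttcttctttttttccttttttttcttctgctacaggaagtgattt
SAPCD2 (chr9:137070558-137070807, minus strand): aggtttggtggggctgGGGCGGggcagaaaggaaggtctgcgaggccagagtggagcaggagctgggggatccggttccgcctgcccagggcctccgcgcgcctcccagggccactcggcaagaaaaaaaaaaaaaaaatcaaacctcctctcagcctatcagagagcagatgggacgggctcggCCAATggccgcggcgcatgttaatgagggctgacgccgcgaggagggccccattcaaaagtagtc
RPL12 (chr9:127451407-127451656, minus strand): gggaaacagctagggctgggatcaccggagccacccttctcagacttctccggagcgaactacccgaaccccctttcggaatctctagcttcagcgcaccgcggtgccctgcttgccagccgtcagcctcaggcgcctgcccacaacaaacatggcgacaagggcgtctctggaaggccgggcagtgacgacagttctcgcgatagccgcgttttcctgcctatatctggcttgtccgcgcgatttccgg
TMOD1 holds 1 TATA box match, SHC3 holds 2 CCAAT box matches, SAPCD2 holds 1 GC box and 1 CCAAT box match, and these letters are not in the windows of RGS3, GOLM1 and RPL12. A RefSeq promoter was matched for 396 of the 481 members (82.3%). Among these, 4.80% held the TATA box letters, 72.5% the GC box letters and 34.1% the CCAAT box letters, against 11.1%, 42.3% and 33.0% of all 27305 promoters of the table. That wider set was not limited to expressed or protein-coding genes. Expressed genes of other chromosomes were not counted for these letters, so the differences are not shown to be particular to chromosome 9. The base composition of the printed windows ran from 30.4% G and C in TMOD1 to 62.0% in SAPCD2 and RPL12, so that all 6 lay below the median of 67.8% over matched members. Windows of TSC1 (62.0%, 2 GC box matches), SYK (64.0%, no match) and RPS6 (56.8%, 1 GC box match), which departed likewise, are not printed. Matched members that departed upward had medians of 67.8% in adherent culture and 62.0% in suspension, and those that departed downward 62.0% and 64.0%.

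Chromosome 9 genes held a larger share of the reads in both knockdowns. The share was 3.78%, 3.83% and 3.81% of assigned reads in EXT1kd adherent libraries (3.81% ± 0.02, SD, n = 3) and 3.11%, 2.99% and 3.13% in WT adherent libraries (3.08% ± 0.07, n = 3). In suspension it was 4.07%, 4.08% and 4.20% in EXT1kd libraries (4.11% ± 0.07, n = 3) and 3.32%, 3.40% and 3.35% in WT libraries (3.36% ± 0.04, n = 3). Every EXT1kd library thus lay above every WT library of its culture. Set against the mean of the WT libraries of its culture, the median member had a log2 ratio of 0.29, 0.30 and 0.28 in the EXT1kd adherent libraries and of 0.28, 0.30 and 0.31 in the EXT1kd suspension libraries. The WT libraries, each set against the other WT libraries of its culture, lay between -0.04 and 0.02.

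The median log2 fold change of the 481 members, EXT1kd over WT, was 0.28 in adherent culture and 0.30 in suspension, which is 1.22-fold and 1.23-fold. Over the 11208 genes of other chromosomes at the same level it was -0.00 and -0.02. In adherent culture 437 members lay above 0 (90.9%, against 49.8% of the other genes), and in suspension 440 did (91.5%, against 46.9%). Of the members, 406 lay above 0 in both cultures and 10 lay below 0 in both. At an adjusted p of 0.05, edgeR called 263 members higher and 6 lower in EXT1kd adherent cells, where 15.2% of the 17115 genes tested were called higher and 11.8% lower. In suspension it called 271 members higher and 5 lower, where 8.29% of the genes tested were called higher and 12.6% lower. Members called higher in both cultures numbered 154 (32.0%, against 2.02% of all genes tested), and 95 were called in neither (19.8%, against 59.7%). A member that missed the threshold is not shown to lie at 0.

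**Figure D1:**
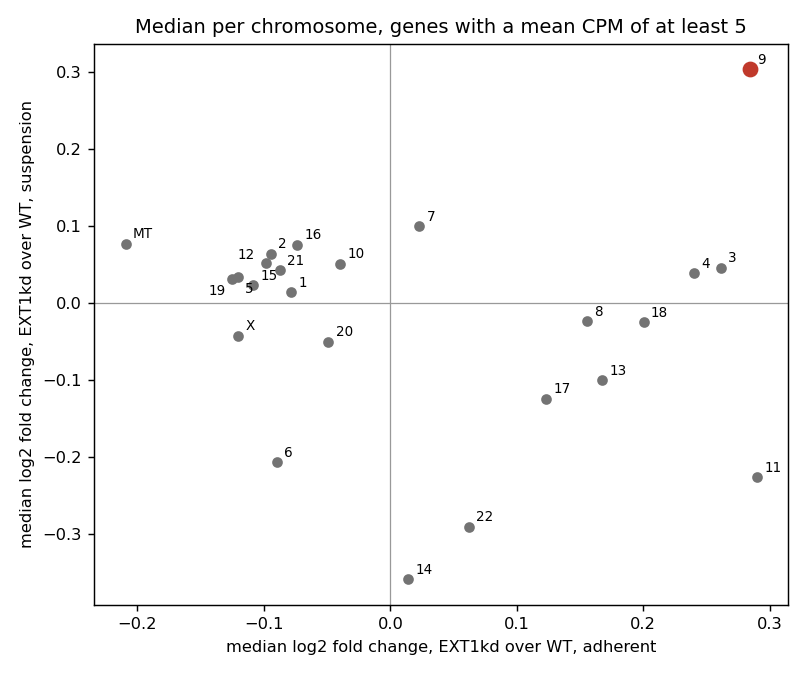
Median log2 fold change of EXT1kd over WT per chromosome in adherent culture (horizontal axis) and in suspension culture (vertical axis), over genes with a mean of at least 5 CPM. Each point is a chromosome, and chromosome 9, at 0.28 and 0.30, is the only one above 0.2 on both axes.

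Other chromosomes had medians as large in 1 culture. Chromosome 11 stood at 0.29 in adherent culture and at -0.23 in suspension, chromosome 3 at 0.26 and 0.05, and chromosome 4 at 0.24 and 0.04. The most negative value was that of chromosome 14, at 0.01 in adherent culture and -0.36 in suspension. Of the 24 chromosomes plotted, the mitochondrial one included, chromosome 9 alone had a median above 0.2 in both. Single genes spread around the chromosome 9 median with an interquartile range of 0.30 in adherent culture and 0.25 in suspension. Genes of other chromosomes, each set against the median of its own chromosome, had interquartile ranges of 0.29 and 0.25.

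The rise was present along the whole chromosome. The members fell into 13 windows of 10 Mb by their start on GRCh38, and the window median was above 0 in all 13 in both cultures. It was also above 0 in 24 of 24 windows of 5 Mb. In the 11 windows with at least 10 members the median ran from 0.17 to 0.37 in adherent culture and from 0.21 to 0.38 in suspension. Each of the 3 EXT1kd libraries of a culture gave 11 window medians, and all 33 were above 0, at 0.13 to 0.40 in adherent and at 0.18 to 0.39 in suspension culture. The same medians for WT libraries, each set against the other WT libraries of its culture, ran from -0.24 to 0.27 in adherent culture, where 17 of 33 were above 0, and from -0.05 to 0.03 in suspension, where 16 of 33 were.

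**Figure D2:**
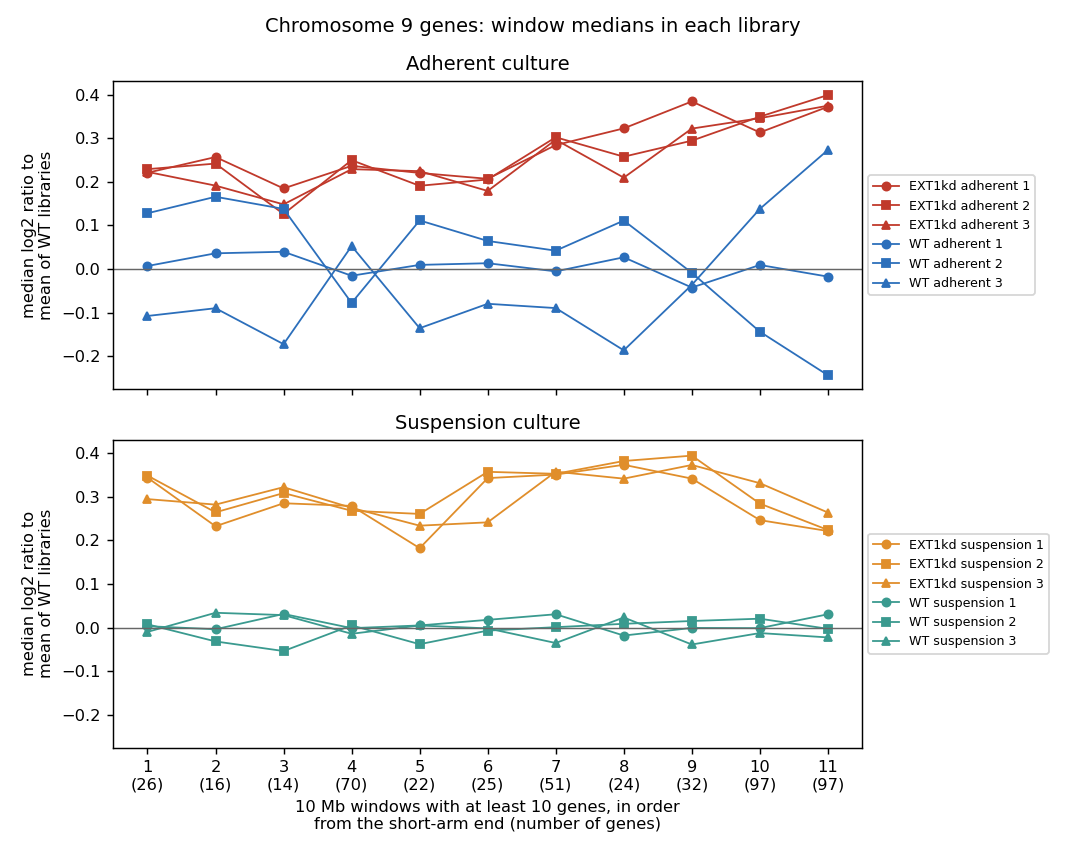
Median log2 ratio of the members in each 10 Mb window with at least 10 genes, in order from the short-arm end (horizontal axis), for each EXT1kd library against the mean of the WT libraries of its culture and each WT library against the other WT libraries (vertical axis). EXT1kd lines lie between 0.13 and 0.40 in adherent and between 0.18 and 0.39 in suspension culture, WT suspension lines lie between -0.05 and 0.03, and WT adherent replicates 2 and 3 end at -0.24 and 0.27 in the last window.

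The rise was not the same in every window, and the order of the windows differed between cultures. In adherent culture the lowest median, 0.17, belonged to the third window (14 members, MLLT3 to C9orf72), and the highest, 0.37, to the last window, which starts at 130 Mb (97 members, GPR107 to TUBBP5). In suspension the last window was among the lowest, at 0.23, and the highest, 0.38, was the window of 24 members between INVS and PTPN3. The last window had medians of 0.37, 0.40 and 0.37 in the EXT1kd adherent libraries and of -0.02, -0.24 and 0.27 in the WT adherent libraries, so that the spread among WT libraries was as large as the difference between windows. Without WT adherent replicate 2 the adherent median of the last window was 0.31, and without WT adherent replicate 3 it was 0.45. The adherent gap between the highest and the lowest window was 0.20 with all libraries, 0.12 without WT adherent replicate 2, 0.32 without WT adherent replicate 3 and 0.21 without both. The gradient along the chromosome in adherent culture therefore rests on which WT libraries are used, whereas its gap stayed at 0.19 to 0.22 under the settings tried that left out no single library. In suspension the gap of 0.16 stayed between 0.14 and 0.19 with 1 library left out, but was 0.24 in 5 Mb and 0.10 in 20 Mb windows. WT adherent replicates 2 and 3 were also furthest apart on chromosome 19, with medians of -0.25 and 0.20. The members of the last window had the richest promoters in G and C, at a median of 73.4%, against 62.4% to 70.8% in the other windows with at least 10 members. The part of base composition in the window differences was not tested.

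Few genes reached the expression level around the centromere. No member starts between CBWD6 at 41131306 and CBWD5 at 65668805, a gap of 24.5 Mb. The 128 members before the gap had medians of 0.23 in adherent culture and 0.29 in suspension, and the 353 members after it had 0.30 and 0.31. Both sides of the chromosome were thus raised in both cultures. The window just before the gap held FRG1HP and CBWD6 alone. FRG1HP, a pseudogene of the FRG1 family, had 10.1, 8.26 and 8.21 CPM in EXT1kd adherent and 7.16, 7.66 and 8.79 CPM in WT adherent libraries, which overlap. Suspension culture gave 13.8, 13.3 and 11.9 CPM in EXT1kd and 10.1, 8.90 and 10.6 CPM in WT libraries (log2 fold change 0.40, SE 0.13). CBWD6 belongs to a family of near-identical copies on both sides of the centromere with CBWD1, CBWD3 and CBWD5. Reads of such copies may be split between them by the counting, and their values are uncertain. CBWD3, one of the least expressed members, is an example, with log2 fold changes of -0.23 in adherent culture and 0.95 in suspension.

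The rise was present at every level of expression. In quartiles of mean CPM, from the 121 least to the 120 most abundant members, the adherent median was 0.24, 0.33, 0.28 and 0.28. The suspension median was 0.31, 0.31, 0.30 and 0.31. Genes of other chromosomes in the same CPM ranges had medians of 0.00, 0.02, 0.01 and -0.03 in adherent culture and of -0.05, -0.02, -0.01 and -0.01 in suspension. The number of members called higher did depend on abundance, at 39, 77, 71 and 76 per quartile in adherent culture and 40, 71, 73 and 87 in suspension. These are 32.2%, 64.2%, 59.2% and 63.3% of the quartiles in adherent culture and 33.1%, 59.2%, 60.8% and 72.5% in suspension. Of other genes in the same CPM ranges, 16.8%, 19.9%, 19.2% and 15.9% were called higher in adherent culture. In suspension 7.92%, 7.43%, 8.18% and 7.63% of them were. The interquartile range of the members was widest in the first quartile (0.43 in both cultures). The gap between adherent quartiles, 0.08, was 0.05 without both WT adherent replicates 2 and 3, 0.16 without WT adherent replicate 1 and 0.14 on the log2(FPKM + 1) scale. The gap between suspension quartiles, 0.01, ran from 0.0089 to 0.0548 with 1 library left out. It was 0.0721 on the log2(FPKM + 1) scale and 0.0771 in quartiles of mean FPKM. Below the cut, the 213 chromosome 9 genes that were tested but averaged under 5 CPM had medians of 0.17 in adherent culture and 0.33 in suspension, with interquartile ranges of 0.86 and 0.68. Just outside the cut lay TRAF1 (4.89 CPM, log2 fold changes 0.37 adherent and 0.33 suspension), GADD45G (4.89 CPM, -0.58 and -0.10) and ZNF658 (4.96 CPM, -0.13 and 0.18). Just inside lay FAM95C (5.19 CPM, 0.70 and 0.52), CBWD3 (5.21 CPM) and TOR4A (5.25 CPM, -0.41 and 0.56).

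**Figure D3:**
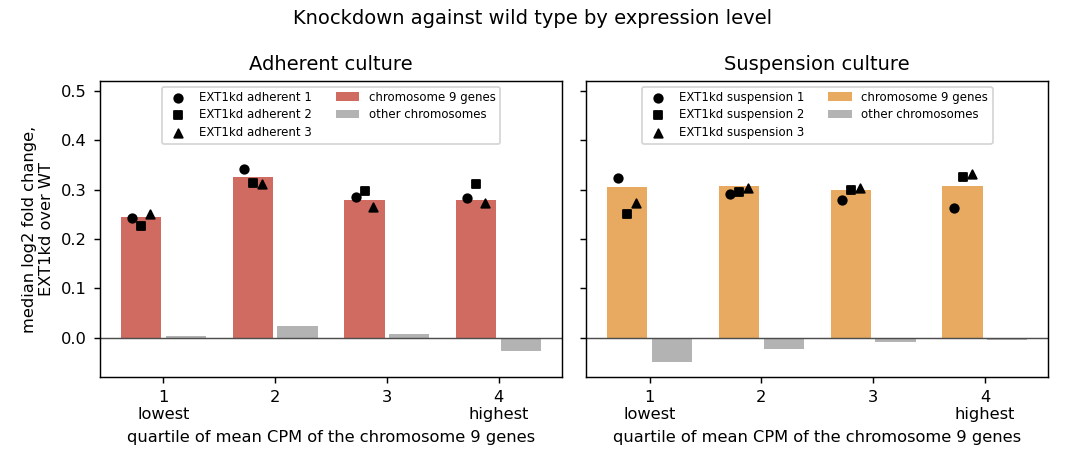
Median log2 fold change of EXT1kd over WT (vertical axis) by quartile of mean CPM (horizontal axis), as bars for chromosome 9 genes and grey bars for genes of other chromosomes in the same CPM range, with a point per EXT1kd library. Chromosome 9 bars lie between 0.24 and 0.33, and bars of other chromosomes within 0.05 of 0.

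The comparison of suspension with adherent culture did not enter the choice of the chromosome. In EXT1kd cells 196 members were higher and 115 lower in suspension (edgeR, adjusted p of 0.05), with a median log2 fold change of 0.12. Over all genes tested 26.8% were called higher and 29% lower. In WT cells 171 members were higher and 111 lower, with a median of 0.10, where 27.7% of the genes tested were called higher and 28% lower. The genes of other chromosomes had medians of -0.08 in EXT1kd and -0.07 in WT cells. The member with the largest change was NTNG2, a netrin that is tethered to neuronal membranes. NTNG2 had 33.1, 27.3 and 26.6 CPM in EXT1kd suspension and 1.15, 1.83 and 1.25 CPM in EXT1kd adherent libraries, a log2 fold change of 4.38 (adjusted p = 2.1e-12). In WT cells NTNG2 had 16.4, 12.9 and 12.9 CPM in suspension and 1.94, 1.19 and 0.96 CPM in adherent libraries, a log2 fold change of 3.39. The values of the cultures did not overlap in either line. By window, the medians of this comparison were 0.33 in EXT1kd and 0.18 in WT cells in the first window and -0.28 and -0.12 in the last.

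The knockdown effects on single members in the 2 cultures were set against each other. Over the 481 members, Pearson's r between the adherent and the suspension log2 fold change was -0.02 and Spearman's rho was -0.03, given as a description of genes that share 6 libraries per axis and 1 chromosome. Genes of other chromosomes gave -0.06 and -0.02. The 2 comparisons share no library. The difference between the knockdown effects, suspension minus adherent, passed the threshold for 49 members in the upward and 57 in the downward direction, where 9.45% and 14.6% of all genes tested did.

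To find the genes that left this common level, the median of each chromosome was added to the model of the knockdown libraries, and what remained for a gene was called its departure. In adherent culture 64 members departed upward and 44 downward at an adjusted p of 0.05 (edgeR), and 373 did not pass. Over all genes tested, each set against its own chromosome, 9.06% departed upward and 8.41% downward. In suspension 32 members departed upward and 34 downward, 415 did not pass, and the shares over all genes were 5.26% and 7.37%. Members within 0.2 log2 units of the chromosome median numbered 300 in adherent culture and 330 in suspension. These counts depended on the libraries used: with 1 library left out they ranged over 66 (without EXT1kd adherent replicate 3) to 155 (without WT adherent replicate 3) in adherent culture. In suspension they ranged over 31 (without WT suspension replicate 3) to 107 (without WT adherent replicate 2). Fits of the 6 libraries of a culture gave 63 and 130. Without both WT adherent replicates 2 and 3, which stood apart, 88 members departed in adherent and 130 in suspension culture, in place of 108 and 66. That setting leaves WT adherent with 1 library, which is then assumed to vary like the libraries of the other groups. A departure in either culture was called for 153 members (31.8%) and in both for 21 (4.37%), shares close to the 29.8% and 4.80% of genes of other chromosomes with at least 5 CPM. Of these 21, 5 were upward in both (1.04% of members, against 1.09% of those other genes) and 6 downward in both (1.25%, against 1.52%). A further 9 were upward in adherent and downward in suspension culture (1.87%, against 1.39%), and 1 was the reverse (0.21%, against 0.80%).

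**Figure D4:**
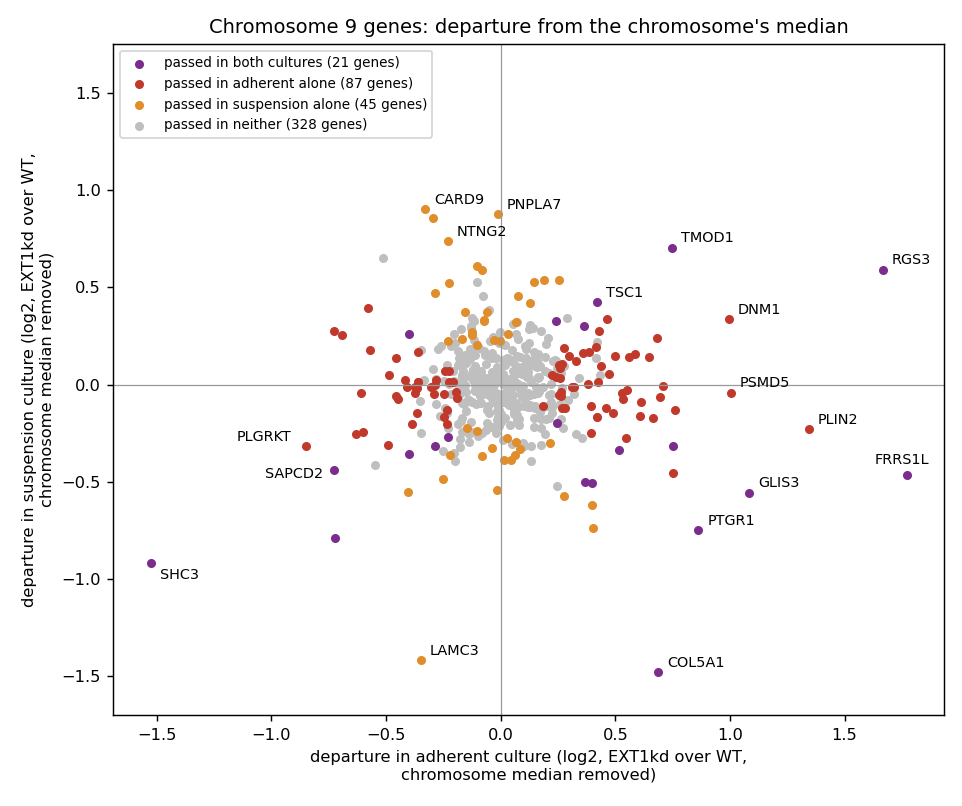
Departure of each member from the chromosome median in adherent (horizontal axis) and suspension culture (vertical axis), as log2 of EXT1kd over WT, with colours for the cultures in which it passed an adjusted p of 0.05. Labelled genes at the edges include TMOD1 and RGS3 (upward in both), SHC3 and SAPCD2 (downward in both), and COL5A1, PTGR1, GLIS3 and FRRS1L (upward in adherent, downward in suspension).

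The 5 members with an upward departure that passed the threshold in both cultures were TMOD1, RGS3, TSC1, SYK and GOLM1. TMOD1 (chr9:97501180-97601748), whose product tropomodulin caps the pointed ends of actin filaments, had 20.9, 22.2 and 18.4 CPM in EXT1kd adherent and 9.71, 11.4 and 8.98 CPM in WT adherent libraries. The suspension values were 37.3, 38.7 and 43.3 CPM in EXT1kd and 17.6, 21.8 and 19.97 CPM in WT libraries. The groups did not overlap in either culture, and the departure was 0.75 in adherent (SE 0.12, adjusted p = 0.00021) and 0.70 in suspension culture (SE 0.11, adjusted p = 0.000238). The TATA box match of TMOD1 shown above lies near the end of its window that is far from the transcription start, and its use was not tested. TSC1 (chr9:132891348-132946874), which with TSC2 restrains the growth kinase complex mTORC1, had 120.4, 108 and 131 CPM in EXT1kd adherent and 69.9, 76.0 and 74.4 CPM in WT adherent libraries. In suspension it had 95.6, 91.2 and 91.5 CPM in EXT1kd and 58.1, 53.3 and 56.6 CPM in WT libraries. All EXT1kd values lay above all WT values, and the departure was 0.42 in both cultures (adjusted p = 0.000587 and 0.00102).

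SYK, a cytoplasmic tyrosine kinase best known from immune receptor signalling, had 72.8, 73.6 and 71.3 CPM in EXT1kd adherent and 51.3, 44.6 and 43.3 CPM in WT adherent libraries. Suspension culture gave 76.4, 79.7 and 77.6 CPM in EXT1kd and 50.4, 55.1 and 48.4 CPM in WT libraries. The groups did not overlap, and the departures were 0.36 and 0.30 (adjusted p = 0.00296 and 0.0152). GOLM1, a membrane protein of the Golgi, had departures of 0.24 and 0.33 (adjusted p = 0.0124 and 0.00228). RGS3, which speeds the shut-off of G protein alpha subunits, was the most changed of the 5 in adherent culture, with 6.45, 5.56 and 8.66 CPM in EXT1kd and 2.00, 1.76 and 1.63 CPM in WT libraries. In suspension RGS3 had 7.26, 8.45 and 9.09 CPM in EXT1kd and 5.38, 3.80 and 4.15 CPM in WT libraries. Its departure was 1.67 in adherent (SE 0.21, adjusted p = 1.73e-05) and 0.59 in suspension culture (SE 0.18, adjusted p = 0.0405). Calls of this set that were lost when 1 library was left out were those of GOLM1 in adherent culture without any of the 3 EXT1kd adherent replicates (0.22 to 0.24, adjusted p of 0.0620 to 0.0796), of SYK in suspension without WT suspension replicate 1 or 3 or EXT1kd suspension replicate 2 (0.26 to 0.29, 0.0614 to 0.0819), and of RGS3 in suspension without replicate 2 or 3 of either line (0.48 to 0.58, 0.104 to 0.185). Without both WT adherent replicates 2 and 3, the adherent departures of SYK and GOLM1 were 0.21 and 0.17 (adjusted p = 0.121 and 0.152), with 1 WT adherent library left. Against the median of its own 10 Mb window in place of the chromosome, RGS3 departed by 0.55 in suspension (adjusted p = 0.0575).

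The members with a downward departure that passed the threshold in both cultures were SHC3, SAPCD2, GNAQ, RPL12, RPS6 and the processed pseudogene EEF1A1P5. SHC3 (chr9:89005771-89178767), an adaptor of receptor tyrosine kinases in neurons, had 2.42, 1.54 and 1.71 CPM in EXT1kd adherent and 4.85, 3.52 and 5.14 CPM in WT adherent libraries. The suspension values were 7.87, 6.51 and 6.90 CPM in EXT1kd and 12.3, 9.72 and 10.5 CPM in WT libraries. It was below WT in both cultures, not only below the chromosome, with log2 fold changes of -1.24 and -0.61 and departures of -1.52 (SE 0.21, adjusted p = 4.86e-05) and -0.92 (SE 0.16, adjusted p = 0.00108). The adherent value rests on 93 reads in the EXT1kd and 249 in the WT libraries. SAPCD2, which takes part in orienting the mitotic spindle, had 61.6, 68.1 and 61.2 CPM in EXT1kd adherent and 92.4, 66.0 and 101 CPM in WT adherent libraries, which overlap. Its departures were -0.73 and -0.44 (adjusted p = 0.000143 and 0.0156).

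GNAQ, the G protein alpha subunit that couples receptors to phospholipase C, had 72.8, 57.9 and 67.7 CPM in EXT1kd adherent and 75.05, 78.0 and 62.5 CPM in WT adherent libraries. In suspension it had 73.6, 75.3 and 70.6 CPM in EXT1kd and 78.9, 72.9 and 76.1 CPM in WT libraries. Its groups overlapped in both cultures, with log2 fold changes of -0.12 and -0.05, and it was its distance from the raised chromosome that passed, at -0.40 and -0.36 (adjusted p = 0.00441 and 0.0133). Against the median of its own 10 Mb window the suspension value was -0.27 (adjusted p = 0.0565). EEF1A1P5, named after its values were seen because the rule for naming was limited to protein-coding genes, was below WT in both cultures, with log2 fold changes of -0.44 and -0.49. It is a copy of the abundant EEF1A1 of another chromosome. Its reads may come in part from that gene, which was not tested, so its values are uncertain. The suspension calls were lost for SAPCD2 without replicate 1 of either line, WT suspension replicate 3 or EXT1kd suspension replicate 2 (-0.44 to -0.42, adjusted p of 0.0506 to 0.0588) and for GNAQ without WT suspension replicate 1 or EXT1kd suspension replicate 3 (-0.33 to -0.32, 0.0573 to 0.0639).

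The cytosolic ribosomal proteins had the lowest medians of the 11 functional groups read here, 0.08 in adherent culture and 0.01 in suspension. RPL7A, RPL35 and RPS6 were the members with the highest values per length, at means of 909, 437 and 407 FPKM. Of the 4 ribosomal proteins on the chromosome, 1 (RPL7A, adherent) was called higher in adherent culture and 0 in suspension at the adjusted p of 0.05. Of all members 54.7% were called higher in adherent culture and 56.3% in suspension. RPS6 had 997, 1016 and 894 CPM in EXT1kd adherent and 985, 859 and 955 CPM in WT adherent libraries. Suspension culture gave 1198, 1305 and 1360 CPM in EXT1kd and 1199, 1293 and 1283 CPM in WT libraries. The groups overlapped in both cultures, with departures of -0.23 and -0.27 (adjusted p = 0.0388 and 0.0222). RPL12 had log2 fold changes of -0.00 and -0.01 and departures of -0.28 and -0.32 (adjusted p = 0.0193 and 0.0145), and RPL35 had departures of -0.17 and -0.24, which did not pass. RPL7A had 2047, 2156 and 2085 CPM in EXT1kd adherent and 1835, 1599 and 1511 CPM in WT adherent libraries, a log2 fold change of 0.35. The difference of its knockdown effects, suspension minus adherent, was -0.41. Measured from the chromosome median rather than from WT, its suspension departure was -0.36 (adjusted p = 0.00492). Processed pseudogenes of these genes can share their reads, which makes their values uncertain. With 1 library left out, RPS6 lost its call in 7 of 12 cases in adherent and 4 of 12 in suspension culture, and RPL12 in 2 and 3, at adjusted p of 0.0517 to 0.217, so the distance of single ribosomal genes from the chromosome was close to the threshold. The limma test on FPKM values called neither gene. It also did not call the suspension departure of RPL7A (adjusted p = 0.0767 on log2(FPKM + 1) and 0.0700 on log2(FPKM + 0.1)). Against the median of its own 10 Mb window RPS6 departed by -0.18 and -0.22 (adjusted p = 0.102 and 0.0621).

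In adherent culture the largest upward departures beside RGS3 were those of FRRS1L, PLIN2, GLIS3, PSMD5, DNM1, PTGR1 and NMRK1. FRRS1L (chr9:109130293-109167295), an accessory protein of AMPA-type glutamate receptors, had 6.97, 5.70 and 7.81 CPM in EXT1kd adherent and 1.70, 2.10 and 1.20 CPM in WT adherent libraries, a departure of 1.77 (SE 0.19, adjusted p = 2.65e-06). The suspension values were 9.36, 8.76 and 8.75 CPM in EXT1kd and 10.1, 10.2 and 9.67 CPM in WT libraries. WT adherent cells were thus the low group for FRRS1L. They were the low group also for the lipid droplet coat protein PLIN2, which had 9.79, 11.8 and 10.3 CPM in EXT1kd adherent and 3.52, 3.52 and 3.26 CPM in WT adherent libraries (departure 1.34, adjusted p = 6.96e-06). In suspension PLIN2 had 6.79, 5.96 and 8.36 CPM in EXT1kd and 6.27, 6.44 and 7.46 CPM in WT libraries, which overlap and lie below the EXT1kd adherent values.

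PSMD5, a chaperone in the assembly of the regulatory particle of the proteasome, had 32.7, 30.0 and 36.03 CPM in EXT1kd adherent and 14.6, 14.1 and 11.96 CPM in WT adherent libraries. In suspension it had 35.5, 37.6 and 36.4 CPM in EXT1kd and 29.1, 32.1 and 30.2 CPM in WT libraries, a change close to that of the chromosome (log2 fold change 0.26). Its adherent departure was 1.00 (SE 0.10, adjusted p = 8.18e-07). DNM1, the dynamin that pinches off endocytic vesicles, had 34.9, 30.8 and 40.4 CPM in EXT1kd adherent and 13.9, 13.6 and 16.2 CPM in WT adherent libraries (departure 0.99, adjusted p = 1.22e-05). Suspension culture gave 55.8, 44.9 and 42.4 CPM in EXT1kd and 33.4, 28.6 and 29.6 CPM in WT libraries. For DNM1 both cultures were higher than WT without overlap, with log2 fold changes of 1.28 and 0.64. NMRK1, a nicotinamide riboside kinase of NAD synthesis, departed by 0.76 (adjusted p = 0.00931), a call lost without EXT1kd adherent replicate 3 (0.67, adjusted p = 0.0524). On the log2(FPKM + 1) scale, which shrinks changes of genes with few reads per length, the departures of FRRS1L and RGS3 were 0.13 and 0.15 and did not pass.

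The largest downward departures in adherent culture beside SHC3 and SAPCD2 were those of PLGRKT, AJM1, TOR4A, ASTN2, SLC1A1 and ELAVL2. PLGRKT, a plasminogen receptor with a lysine at its end, had 4.90, 5.34 and 5.13 CPM in EXT1kd adherent and 7.58, 7.04 and 8.07 CPM in WT adherent libraries (departure -0.85, SE 0.12, adjusted p = 8.15e-05). SLC1A1, the neuronal glutamate transporter EAAT3, had 13.0, 13.1 and 14.3 CPM in EXT1kd adherent and 17.2, 17.4 and 16.1 CPM in WT adherent libraries (departure -0.61, adjusted p = 0.000277). ELAVL2, a neuronal RNA-binding protein of the Hu family, had 27.7, 28.9 and 28.2 CPM in EXT1kd adherent and 35.4, 37.2 and 30.9 CPM in WT adherent libraries (departure -0.57, adjusted p = 0.000103). These 3 were below WT in adherent culture without overlap. In suspension ELAVL2 had 37.2, 38.4 and 38.4 CPM in EXT1kd and 25.8, 28.7 and 27.2 CPM in WT libraries, a log2 fold change of 0.48, and the difference between cultures was 0.77 (adjusted p = 0.000145). The departures of AJM1 (-0.73), TOR4A (-0.69) and ASTN2 (-0.63) passed narrowly, at adjusted p of 0.0298, 0.047 and 0.0102. Against the 1 WT adherent library left without replicates 2 and 3, these departures were -0.64, -0.58 and -0.59 and their calls were lost (adjusted p = 0.103, 0.157 and 0.0751). The call of AJM1 was also lost without WT adherent replicate 3 or EXT1kd adherent replicate 1 (-0.60 to -0.47), and that of TOR4A in 8 of 12 fits with 1 library left out (-0.76 to -0.40, adjusted p up to 0.227).

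**Figure D5:**
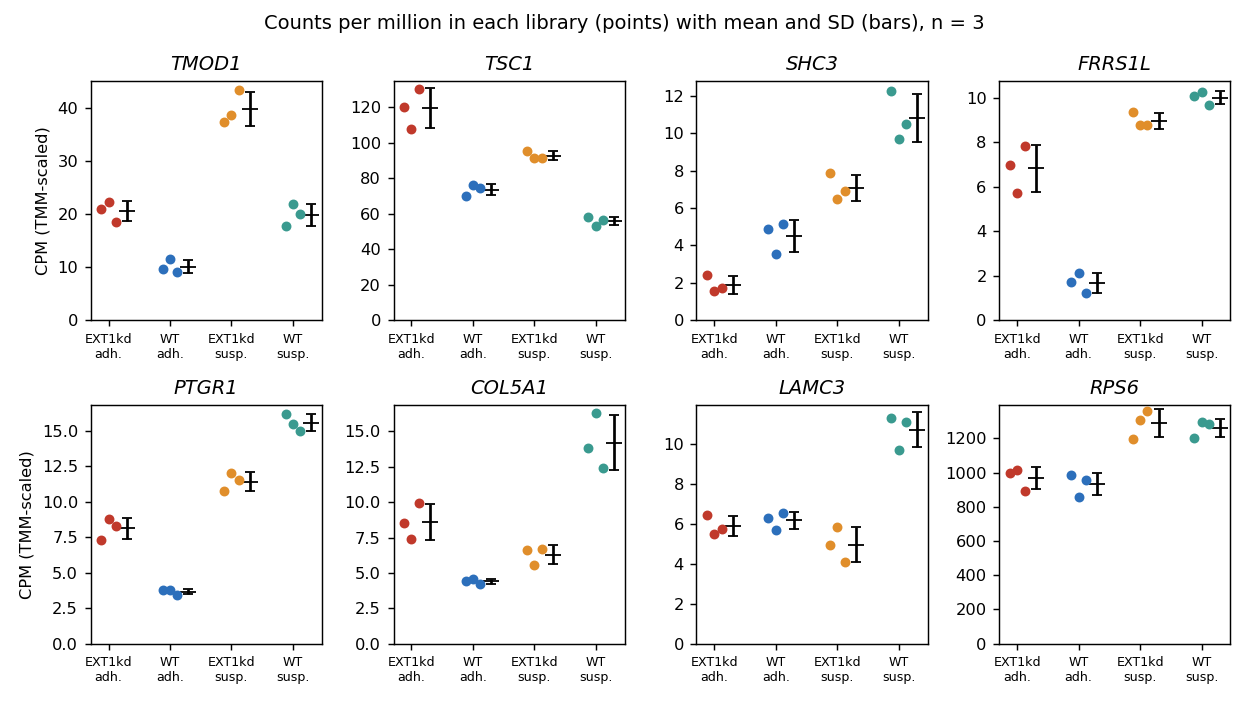
CPM of 8 members in each library (points) with the mean and SD of each group (bars, n = 3), by group on the horizontal axis. TMOD1 and TSC1 lie higher in EXT1kd than in WT libraries of both cultures, SHC3 lies lower in both, FRRS1L, PTGR1 and COL5A1 lie higher in EXT1kd adherent but lower in EXT1kd suspension libraries than in WT, LAMC3 lies lower in EXT1kd suspension, and RPS6 overlaps.

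Among the matrix genes, COL5A1 and LAMC3 differed between cultures in their knockdown effect (-2.15 and -1.05, adjusted p = 8.18e-07 and 0.00147). COL5A1 (chr9:134641774-134844843), the alpha 1 chain of type V collagen, had 8.53, 7.38 and 9.92 CPM in EXT1kd adherent and 4.43, 4.60 and 4.23 CPM in WT adherent libraries. The suspension values were 6.65, 5.53 and 6.68 CPM in EXT1kd and 13.8, 16.3 and 12.4 CPM in WT libraries. The knockdown was thus higher than WT in adherent culture (log2 fold change 0.97) and lower in suspension (-1.18), without overlap in either, and the departures were 0.69 (SE 0.15, adjusted p = 0.00396) and -1.48 (SE 0.14, adjusted p = 1.29e-06). LAMC3 (chr9:131009082-131094473), the laminin gamma 3 chain of basement membranes, had 4.95, 5.84 and 4.09 CPM in EXT1kd suspension and 11.3, 9.72 and 11.1 CPM in WT suspension libraries, a departure of -1.42 (SE 0.15, adjusted p = 3.21e-06). In adherent culture it had 6.45, 5.48 and 5.76 CPM in EXT1kd and 6.31, 5.68 and 6.53 CPM in WT libraries, which overlap. The matrix glycoprotein TNC, named after its values were seen, went the other way in suspension, with 210.2, 201 and 205 CPM in EXT1kd and 121, 125 and 117 CPM in WT libraries (departure 0.46, adjusted p = 0.000207). On the log2(FPKM + 1) scale the adherent departure of COL5A1 was 0.09 and did not pass (adjusted p = 0.378). Of the 6 fibroblast markers, COL1A1 was at 25.1 to 29.1 CPM in EXT1kd adherent and 14.7 to 19.2 CPM in WT adherent libraries, and at 14.8 to 15.6 CPM in EXT1kd suspension and 16.2 to 17.8 CPM in WT suspension libraries, the same order as COL5A1 in both cultures. COL3A1 (1.90 to 2.18 CPM in EXT1kd, 2.48 to 3.27 CPM in WT) was also lower in EXT1kd suspension libraries, and PDGFRA (0.677 to 1.21 CPM in EXT1kd, 1.17 to 1.34 CPM in WT) overlapped there. LUM was at 2.85 to 4.04 CPM in EXT1kd adherent and 0.575 to 0.727 CPM in WT adherent libraries, and at 11.24 to 13.5 CPM in EXT1kd suspension and 9.06 to 11.25 CPM in WT suspension libraries. COL1A2 and DCN did not exceed 0.0606 and 0.34 CPM. The 6 markers summed to 31.3 to 36.1 CPM in EXT1kd adherent and 19.4 to 22.6 CPM in WT adherent libraries, and to 29.4 to 32.5 CPM in EXT1kd suspension and 30.04 to 32.3 CPM in WT suspension libraries. Their part in the matrix values was not tested. Of the 9 matrix genes among the members, 7 were called higher and 0 lower in adherent culture, and 3 were called higher and 2 lower in suspension, where 54.7% and 56.3% of all members were called higher.

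PTGR1, GLIS3 and FRRS1L also departed in opposite directions. PTGR1 (chr9:111549722-111599893), a reductase that inactivates prostaglandins and leukotriene B4, had 7.32, 8.77 and 8.32 CPM in EXT1kd adherent and 3.76, 3.80 and 3.46 CPM in WT adherent libraries. In suspension it had 10.7, 12.04 and 11.5 CPM in EXT1kd and 16.2, 15.5 and 15.0 CPM in WT libraries. The groups did not overlap in either culture, and the departures were 0.86 (adjusted p = 0.000167) and -0.75 (adjusted p = 0.0002). GLIS3, a zinc finger transcription factor needed in kidney and pancreas, had 12.3, 11.04 and 10.1 CPM in EXT1kd adherent and 4.43, 4.71 and 3.89 CPM in WT adherent libraries (departure 1.08, adjusted p = 6.54e-05). Suspension culture gave 5.22, 5.29 and 6.06 CPM in EXT1kd and 6.95, 7.43 and 5.32 CPM in WT libraries, which overlap (departure -0.56, adjusted p = 0.0244). The suspension calls of GLIS3 and FRRS1L were lost in 4 and 9 of 12 fits with 1 library left out, at adjusted p up to 0.131 and 0.139, while the differences between cultures, -1.62 and -2.21, passed with all libraries (adjusted p = 3.68e-05 and 3e-06).

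In suspension the largest upward departures beside TMOD1 and RGS3 were those of CARD9, PNPLA7, NTNG2, ZNF169, ZDHHC21 and ST6GALNAC4. PNPLA7, a lysophospholipase, had 8.07, 5.53 and 5.22 CPM in EXT1kd suspension and 2.69, 2.93 and 2.63 CPM in WT suspension libraries (departure 0.88, SE 0.20, adjusted p = 0.00594). NTNG2 departed by 0.74 (adjusted p = 0.00255) in suspension. ST6GALNAC4, a sialyltransferase, had 23.3, 26.3 and 25.6 CPM in EXT1kd suspension and 14.8, 13.6 and 13.5 CPM in WT suspension libraries (departure 0.54, adjusted p = 0.00557). None of these overlapped. CARD9, an adaptor of antifungal innate signalling, departed by 0.90 (adjusted p = 0.0349) and ZNF169, a zinc finger protein, by 0.59 (adjusted p = 0.0232), but the calls were lost in 4 and 5 of 12 fits with 1 library left out. The palmitoyltransferase ZDHHC21 departed by 0.54 (adjusted p = 0.00493). Downward departures beside COL5A1, LAMC3, SHC3, PTGR1 and GLIS3 were those of CACFD1 (-0.74, adjusted p = 0.0144), DMRTA1 (-0.62, adjusted p = 0.0469) and RNF208 (-0.57, adjusted p = 0.0151). Their calls were lost in 2, 8 and 4 of 12 such fits. On the log2(FPKM + 1) scale the departure of PNPLA7 was 0.08 and did not pass.

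The members were also read in 11 groups by the function of their products, which are descriptions because groups and members were chosen with earlier results known. Of the 16 actin and membrane skeleton genes, 12 were called higher and 0 lower in adherent culture and 11 higher and 0 lower in suspension, with medians of 0.42 and 0.35. Over all members 54.7% were called higher in adherent culture and 56.3% in suspension, and the median was 0.28 and 0.30. Of these 16 genes, 6 departed upward and 0 downward in adherent culture, against 13.3% and 9.15% of all members. In suspension 2 departed upward and 0 downward, against 6.65% and 7.07%. GSN, the actin-severing protein gelsolin, had 17.5, 18.1 and 18.2 CPM in EXT1kd adherent and 9.04, 8.01 and 10.1 CPM in WT adherent libraries, a departure of 0.70 (adjusted p = 0.00012), but in suspension its log2 fold change of 0.24 did not pass. ANXA1, an annexin that binds membranes and actin, was at 124 to 138 CPM in EXT1kd suspension and at 89.6 to 93.2 CPM in WT suspension libraries, against 8.93 to 9.14 CPM in EXT1kd adherent and 8.55 to 8.91 CPM in WT adherent libraries. GSN and ANXA1 were named after their values were seen.

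Of the 16 glycosylation and glycolipid genes, 13 were called higher in adherent culture and 8 in suspension, and 0 were called lower in either, with medians of 0.46 and 0.29. Of all members 54.7% were called higher in adherent culture and 56.3% in suspension, and the suspension share was near the latter. In adherent culture 4 of the group departed upward and 0 downward, against 13.3% and 9.15% of all members. In suspension 2 departed upward and 1 downward, against 6.65% and 7.07%. DOLK, the kinase that makes dolichol phosphate for N-glycosylation, had 38.5, 41.0 and 35.5 CPM in EXT1kd adherent and 26.5, 18.3 and 23.8 CPM in WT adherent libraries (departure 0.46, adjusted p = 0.00667), and its suspension departure of -0.12 did not pass. Without both WT adherent replicates 2 and 3, against the 1 WT adherent library left, the departure of DOLK was 0.24 (adjusted p = 0.182).

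The signalling group of 25 genes departed in both directions. It had 14 members called higher and 1 lower in adherent culture and 12 higher and 1 lower in suspension. Of all members 54.7% were called higher in adherent culture and 56.3% in suspension, so both shares were near those of the chromosome. In adherent culture 8 of the group departed upward and 5 downward, against 13.3% and 9.15% of all members. In suspension 3 departed upward and 4 downward, against 6.65% and 7.07%. SHC3 was the 1 called lower in both. NOTCH1, named after its values were seen, had 79.9, 74.1 and 86.1 CPM in EXT1kd adherent and 39.4, 40.7 and 44.1 CPM in WT adherent libraries (departure 0.67, adjusted p = 9.1e-06). In suspension NOTCH1 had 60.9, 55.1 and 54.2 CPM in EXT1kd and 53.8, 50.2 and 51.5 CPM in WT libraries, a departure of -0.17 that did not pass. NRARP, a gene that Notch signalling switches on and that limits it, also named after its values were seen, had 135, 131 and 129 CPM in EXT1kd adherent and 71.7, 56.1 and 64.7 CPM in WT adherent libraries (departure 0.75, adjusted p = 3.52e-06). Both Notch genes were thus high in EXT1kd adherent libraries and close to WT in suspension, where NRARP departed by -0.32 (adjusted p = 0.0179). Of the 24 transcription factor and chromatin genes, 11 were called higher in adherent culture and 10 in suspension and 0 lower in either, shares below the 54.7% and 56.3% of all members.

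Of the 25 DNA repair, replication and cell cycle genes, 10 were called higher in adherent culture and 20 in suspension, with medians of 0.19 and 0.32. Of the 19 RNA processing and transcription machinery genes, 9 and 16 were, with medians of 0.18 and 0.35. None of either group was called lower, and of all members 54.7% were called higher in adherent culture and 56.3% in suspension. CNTRL, the centrosomal protein centriolin, had 35.1, 32.0 and 32.1 CPM in EXT1kd adherent and 18.2, 24.7 and 17.8 CPM in WT adherent libraries (departure 0.43, adjusted p = 0.00953), a call lost without replicate 1 of either line (adjusted p of 0.0552 and 0.0556). NOL8, a nucleolar protein of ribosome biogenesis, had 124, 125 and 106 CPM in EXT1kd suspension and 75.1, 72.9 and 73.6 CPM in WT suspension libraries (departure 0.37, adjusted p = 0.0073). POLR1E, a subunit of RNA polymerase I, had a log2 fold change of 0.00 in adherent culture and of 0.33 in suspension. Of the 25 genes of protein folding, secretion and degradation, 14 and 17 were called higher and 0 lower, and DNAJB5, a co-chaperone of HSP70, was the 1 that departed downward in suspension (-0.54, adjusted p = 0.0163), a call lost in 3 of 12 fits with 1 library left out.

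Of the 18 nuclear genes for mitochondrial proteins, 7 were called higher in adherent culture and 9 in suspension and 0 lower, against 54.7% and 56.3% of all members called higher. ENDOG, a nuclease of mitochondria, had 15.6, 19.96 and 15.9 CPM in EXT1kd adherent and 11.2, 7.15 and 6.87 CPM in WT adherent libraries, and 10.7, 10.4 and 13.3 CPM in EXT1kd suspension against 13.1, 14.1 and 10.99 CPM in WT suspension libraries. Its adherent departure was 0.75 (adjusted p = 0.00402), and 0.32 (adjusted p = 0.271) against the 1 WT adherent library left without replicates 2 and 3. The interferon genes, which form a cluster on the short arm, were not expressed at the level required. In the list of interferon cluster and innate immunity genes 4 of 14 genes found were members, of which 1 was called higher in adherent culture and 3 in suspension. TRIM14, an adaptor of antiviral signalling, had 52.1, 53.4 and 48.6 CPM in EXT1kd adherent and 27.8, 34.2 and 35.1 CPM in WT adherent libraries (departure 0.38, adjusted p = 0.0057), and in suspension its log2 fold change of 0.30 equalled that of the chromosome.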

How the data were processed

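Polyadenylated RNA of 12 HEK293 libraries was sequenced, 3 in each of 4 groups. Reads were aligned to GRCh38 with HISAT2 and counted with featureCounts 1.5.0, per the submitters' processing notes. The authors deposited a table of read counts per gene beside FPKM values per gene. No source used here gives the annotation release or the strand setting, so antisense and overlapping genes are uncertain. Counts were tested in edgeR 4.0.16 (R 4.3.3) by the quasi-likelihood test with TMM scaling, filterByExpr and 1 mean per group over all 12 libraries, and p-values were adjusted by Benjamini-Hochberg over 17115 genes at a threshold of 0.05. Departures came from the same model with the median log2 ratio of each chromosome (genes of at least 5 CPM) as an offset of the knockdown libraries. Standard errors are the log2 fold change divided by the root of F. Ratios per library used log2(CPM + 0.5). DESeq2 1.42.0, limma 3.58.1 with voom, and limma on log2(FPKM + 1) and log2(FPKM + 0.1) were alternatives, as were other scalings, filters and window sizes, a fit per culture, each library left out, and a replicate block. The analysis was also run on simulated counts with an even chromosome 9 shift in EXT1kd adherent libraries and the same spread for all genes. That simulation did not include the wider spread of WT adherent libraries or differences between windows. Named genes were protein-coding members that departed past the threshold without overlap of the 3 and 3 libraries once the chromosome median was removed: the 8 largest in each direction and culture, up to 6 that departed the same way in both cultures per direction, and 4 that departed in opposite directions. To these were added the 3 members with the highest mean FPKM, the largest departure of each functional list in each culture, and the members of windows with under 5. The members and lists were chosen with earlier results of these data known. Libraries held 13911604 to 21393059 counted reads. Replicate numbers were not used to pair the samples in the main fit.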

Additional observations from a re-analysis of the deposited data

Results flagged for a closer look

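For 27 of the 45 named chromosome 9 genes the knockdown effect differed between cultures by a test of the difference itself (edgeR interaction term, suspension minus adherent, adjusted p under 0.05 over all genes tested). Over all genes tested it was positive for 9.45% and negative for 14.6%. It was negative for 17 of the 27. FRRS1L (-2.21), COL5A1 (-2.15), GLIS3 (-1.62), PTGR1 (-1.59) and PLIN2 (-1.55) had the largest negative values on the log2 scale. ENDOG (-1.19), CACFD1 (-1.12), RGS3 (-1.06), LAMC3 (-1.05), PSMD5 (-1.03) and DMRTA1 (-0.999) followed. NMRK1 (-0.87), RNF208 (-0.83), DNM1 (-0.64), DOLK (-0.56), RPL7A (-0.41) and TRIM14 (-0.36) had smaller ones. The difference was positive for 10 genes, at 0.55 for NOL8 and PLGRKT, 0.58 for SLC1A1, 0.69 for ZNF169 and 0.77 for ELAVL2. It was 0.91 for PNPLA7, 0.96 for TOR4A, 0.99 for NTNG2, 1.02 for AJM1 and 1.25 for CARD9. Many of these genes were named for a large departure in 1 culture, so their number follows in part from how they were chosen.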

How the results depend on the processing

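The median log2 fold change of chromosome 9 genes, 0.28 in adherent and 0.30 in suspension culture, was 0.31 and 0.34 without TMM, 0.29 and 0.32 with TMM factors from other chromosomes, and 0.25 and 0.27 on log2(FPKM + 1); in adherent culture it was 0.27 without a filter and 0.30 at a 20 CPM minimum. The gap between expression quartiles, 0.08 and 0.01, was 0.14 and 0.0721 on log2(FPKM + 1) and 0.0468 and 0.0771 in quartiles of FPKM. The adherent gap was 0.0495 without both WT adherent replicates 2 and 3, an alternative chosen after seeing the data. The suspension gap was 0.0419 at a 1 CPM minimum, 0.0181 at 20 CPM and 0.0180 in protein-coding genes. The suspension gap between windows, 0.16, was 0.21 and 0.19 at those minimums, 0.24 in 5 Mb and 0.10 in 20 Mb windows. Departures numbered 108 in adherent and 66 in suspension culture, and 63 and 130 in fits of 6 libraries. In suspension they numbered 41 at 20 CPM and 130 without both doubted WT libraries. With 1 library left out, calls against WT ranged over 208 to 281 in adherent and 214 to 329 in suspension culture, differences between cultures over 74 to 155, culture calls over 268 to 333 in EXT1kd and 247 to 294 in WT, and departures over 66 to 155 and 31 to 107. Medians then ranged over 0.28 to 0.31 and 0.29 to 0.33, window gaps over 0.12 to 0.32 and 0.14 to 0.19, quartile gaps over 0.0579 to 0.16 and 0.0089 to 0.0548, and read share differences over 0.69 to 0.76 and 0.72 to 0.78 percentage points. A replicate block gave 274 and 275 calls, 109 differences, 242 and 218 culture calls, 113 and 62 departures, and medians of 0.29 and 0.30. With that block the suspension departures of RGS3, DMRTA1 and FRRS1L lost their calls (edgeR, adjusted p = 0.0551, 0.0655 and 0.0785). Same-numbered libraries correlated at 0.05, -0.10 and 0.12 in adherent and 0.33, 0.14 and -0.12 in suspension culture. These values cannot show whether same-numbered libraries were prepared together, and the labels do not say. The 56 departures of named genes that passed in the main fit gave 1400 values over these settings. Of these values 143 lost their call and 0 reversed. Only 25 of the 56 departures kept their call under every setting. The cause of these changes was not tested.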
